A study of Mus musculus with 237 samples.

Results

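The replication-dependent histone genes were followed in single cells of the embryonic mouse kidney. The members are all gene entries of the deposited table whose symbol starts with Hist1h, Hist2h, Hist3h or Hist4h, and 70 of the 36186 entries qualify. By histone type they comprise 6 entries for the linker histone H1, 20 for H2A, 19 for H2B, 12 for H3 and 13 for H4. By cluster, 56 carry a Hist1 name, 10 a Hist2 name, 3 a Hist3 name and 1 a Hist4 name. The choice used symbols only, so no measured value decided which entries entered.

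The study captured sorted cells singly on a Fluidigm C1 device and compared cap mesenchyme, the progenitor tissue of the nephron, with the interstitium around it and with cap mesenchyme lineage cells of Pax2 mutants. Pax2 is a transcription factor of the nephron lineage. The E18.5 samples were 74 cells of cap and cap derivatives and 71 interstitium cells, both of wild type, and 44 Pax2 mutant cells. The E13.5 samples were 29 Pax2 mutant cells and 18 cap cells of wild type. The strain of every group is labelled as mixed, and the Pax2 allele is not given in the sources used here. The titles of the interstitium cells carry the name FoxD1 GCE, which the labels do not explain, while their genotype is labelled as wild type. What marked the sorted cap and mutant cells is not given in the sources used here. No label names an embryo, so each group counts as 1 sample. Differences between groups therefore carry the spread between cells (SD) and have no replicate check and no test, and intervals on shares of cells cover counting error only.

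Most histone mRNA is made when DNA is copied, because new DNA needs new nucleosomes. Replication-dependent histone genes mostly lie in clusters and mostly have no introns. Their main transcripts end in a short stem-loop in place of a poly(A) tail, which is bound by the protein Slbp. Rrm2 is a subunit of ribonucleotide reductase, the enzyme that makes the nucleotides for DNA synthesis, and is itself abundant in S phase. Cells were divided at 1 RPKM (reads scaled by the length of the transcript and by all mapped reads of the cell) of Rrm2 for that reason.

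The stem-loop is shown first, since it is the 3′ end that these mRNAs use in place of a poly(A) tail. The letters GGCNCTTNTNAGNGCC on the coding strand were found behind the stop codon in 43 of 67 coding members by their GENCODE M21 transcript, and in 0.0170% of 58725 other coding transcripts. These shares are not alike in how they were counted. Each member has a single transcript, that of the longest coding sequence and, among equals, preferably one with the motif. For other genes every coding transcript was searched over its whole length. Of the 48 members whose transcript model runs at least 60 bases past the stop codon, 41 held the motif. The 30-base sites of 4 members described at length are given 5′ to 3′, with the 16 bases of the motif in capitals.
Hist1h4d: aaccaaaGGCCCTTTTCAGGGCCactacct
Hist1h2ao: aaaaaaaGGCTCTTTTCAGAGCCatccaca
Hist1h1e: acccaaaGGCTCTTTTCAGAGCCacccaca
Hist4h4: ccacaaaGGCCCTTTTCAGGGCCcacaaag
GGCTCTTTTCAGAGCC was the form in 25 members and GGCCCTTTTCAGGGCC in 7. The transcript model ran on for more than 100 bases beyond the stem-loop in 22 members and ended within 100 bases of it in 21. How reverse transcription was primed is not given in the sources used here, so the share of stem-loop transcripts that the libraries could capture is unknown.

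Coding sequences of members were alike enough to limit what a single entry can show. The 60 bases from coding base 61 to 120 of 5 H2A members show this, with bases that differ from Hist1h2ao in capitals.
Hist1h2ao: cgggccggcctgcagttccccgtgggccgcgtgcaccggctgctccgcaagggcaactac
Hist1h2ap: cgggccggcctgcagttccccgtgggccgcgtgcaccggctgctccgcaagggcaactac
Hist1h2ai: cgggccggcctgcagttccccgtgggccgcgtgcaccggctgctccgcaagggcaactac
Hist1h2ae: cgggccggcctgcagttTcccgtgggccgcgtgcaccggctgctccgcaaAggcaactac
Hist2h2ac: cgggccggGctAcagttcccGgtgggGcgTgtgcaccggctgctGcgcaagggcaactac
Over the whole coding sequence Hist1h2ap had no difference from Hist1h2ao, Hist1h2ai differed at 5 of 390 bases, Hist1h2ae at 6 and Hist2h2ac at 40 of 387. The same window of 3 H4 members shows wider spacing, with capitals for bases that differ from Hist1h4d.
Hist1h4d: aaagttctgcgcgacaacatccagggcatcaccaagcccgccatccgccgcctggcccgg
Hist1h4i: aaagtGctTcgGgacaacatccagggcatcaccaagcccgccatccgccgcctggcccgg
Hist4h4: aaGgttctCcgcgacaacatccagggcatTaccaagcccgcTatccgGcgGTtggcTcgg
Hist1h4i differed from Hist1h4d at 24 of 309 coding bases and Hist4h4 at 40.

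Linking members that share at least 50% of their 50-base coding windows gave 29 families, of which 7 held 48 members. Only 9 members had 80% or more of their windows to themselves, and 30 had under 20%. The median unique share was 89% in H1, 15.8% in H2A, 26.1% in H2B, 20.8% in H3 and 28.8% in H4. Hist1h1a, Hist1h1b and Hist4h4 were unique in 100% of windows and Hist1h4d in 57.3%, while Hist1h2ao and Hist1h2ap were unique in 0%. In 167 of 170 cells with both H2A entries, their RPKM agreed within 10%, and Hist1h2bq and Hist1h2br agreed that closely in 60 of 60. Reads of such copies cannot be assigned to 1 gene, and values of H2A, H3 and most H2B entries are best read as values of a family.

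Promoters of the H2A and H2B members often face away from each other, and 10 such pairs were found with overlapping promoter windows on opposite strands. The 120 bases before the start of a divergent pair (Hist1h2ao and Hist1h2bq), of an H2B member with an octamer and of the H4 member with the highest level are given as RefSeq has them on GRCm38.p6. Capitals mark ATTTGCAT (the octamer, bound by POU factors), CCAAT and TATAAA on either strand.
Hist1h2ao, chr13:21810247-21810366, plus strand: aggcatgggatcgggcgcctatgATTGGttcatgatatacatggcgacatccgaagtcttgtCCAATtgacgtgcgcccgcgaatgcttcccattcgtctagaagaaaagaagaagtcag
Hist1h2bq, chr13:21810200-21810319, minus strand: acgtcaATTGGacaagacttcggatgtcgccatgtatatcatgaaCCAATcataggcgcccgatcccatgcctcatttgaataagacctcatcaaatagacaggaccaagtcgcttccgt
Hist1h2bk, chr13:22035701-22035820, plus strand: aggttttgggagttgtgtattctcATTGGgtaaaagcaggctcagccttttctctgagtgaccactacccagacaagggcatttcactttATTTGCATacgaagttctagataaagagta
Hist1h4d, chr13:23581448-23581567, plus strand: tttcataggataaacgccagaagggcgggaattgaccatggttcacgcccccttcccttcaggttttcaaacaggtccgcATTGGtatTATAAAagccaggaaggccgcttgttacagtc
A promoter of 300 bases was matched for 62 of 70 members. ATTTGCAT stood in 7 of 16 H2B and 7 of 18 H2A promoters and in no H1, H3 or H4 promoter, against 1.74% of 32851 promoters of the same length. Windows of divergent pairs overlap, so the same motif can count for both an H2A and an H2B member. In the 120 bases before the start, Hist3h2a alone among H2A members held ATTTGCAT. Among H2B members, Hist2h2bb, Hist1h2bm, Hist1h2bk, Hist1h2bg, Hist1h2bb and a promoter of Hist1h2be held it there. CCAAT stood in 53 of 62 member promoters but in only 3 of 12 for H4, against 37.4% of all promoters. TATAAA stood in 35 of 62, against 13.6%. Both strands were searched and motifs were allowed to overlap each other, and a match describes the sequence only.

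On the deposited mm10 coordinates, 24 Hist1 entries lie at chr13:21715763-22043610 and 31 at chr13:23531044-23934851, with Hist1h2al alone at chr13:51202633-51203066. The Hist2 entries lie at chr3:96219916-96270192, the Hist3 entries at chr11:58948911-58956674 and Hist4h4 at chr6:136801553-136804431. Of the 70 entries, 66 were above 0 in some cell. Hist2h2aa1, Hist1h2ad, Hist1h1t and Hist1h2aj were listed at 0 in all cells. Hist1h1t encodes the testis H1, Hist2h2aa1 lies inside the Hist2h3c1 entry and Hist1h2ad inside the Hist1h3d entry. GENCODE M21 lists Hist1h2aj as an unprocessed pseudogene, and Hist1h2al and Hist3h2bb-ps as processed pseudogenes. Altogether 11 members lay inside a longer entry, where shared reads cannot be told apart without the counting rule.

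The genes detected per cell (1 RPKM or more) had medians of 5210.5 in E18.5 cap, 5178 in interstitium, 3643 in E18.5 mutant, 5566 in E13.5 cap and 4560 in E13.5 mutant cells. Read depth is unknown, since the files hold no counts. Pax2 itself reached 1 RPKM in 56 of 74 E18.5 cap cells and 15 of 18 E13.5 cap cells, in 0 of 44 E18.5 mutant cells (which allows up to 8.04%) and in 17 of 29 E13.5 mutant cells. At least 3 of 6 cap markers (Six2, Cited1, Eya1, Sall1, Pax2 and Crym) were present in 15 of 18 cap cells and 8 of 29 mutant cells at E13.5, and at E18.5 in 64 of 74 cap, 18 of 71 interstitium and 0 of 44 mutant cells. At least 3 of 6 interstitium markers were present in all 44 E18.5 mutant cells, so the markers of that group go against a cap mesenchyme identity and it is called by its label only. Xist reached 1 RPKM in 73 of 74 E18.5 cap cells, 1 of 71 interstitium cells, 44 of 44 and 29 of 29 mutant cells and 0 of 18 E13.5 cap cells, so group and embryo sex cannot be told apart in several comparisons. The titles also carry a pool number, which differs between the E18.5 cap and mutant groups, and a date, which differs between all 5 groups, so date and group cannot be told apart. The 22 interstitium cells of pool 2 and the 49 of pool 3 had mean histone scores of 1.28 and 1.26.

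The histone score of a cell is the mean of log2(RPKM + 1) over all 70 members. Its lowest, median and highest values were 0.455, 2.30 and 4.28 in E13.5 cap, 0.088, 1.30 and 3.49 in E18.5 cap, and 0, 1.17 and 2.91 in interstitium cells. In mutant cells they were 0.076, 0.629 and 2.68 at E13.5 and 0.019, 0.232 and 2.29 at E18.5. The lowest cell of every other group lay below all E13.5 cap cells, and all groups overlapped. The means were 2.19 ± 1.10 (SD, 18 cells), 1.40 ± 1.01 (74 cells), 1.27 ± 0.82 (71 cells), 0.91 ± 0.87 (29 cells) and 0.44 ± 0.51 (44 cells) in the same order. No neighbours in that order differed by more than the SD between cells. A median of 39.5 members reached 1 RPKM in E13.5 cap cells, 23.5 in E18.5 cap, 26 in interstitium, 13 in E13.5 mutant and 5 in E18.5 mutant cells. The members took a median of 0.285%, 0.112%, 0.109%, 0.0598% and 0.0268% of summed RPKM in these groups.

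**Figure D1:**
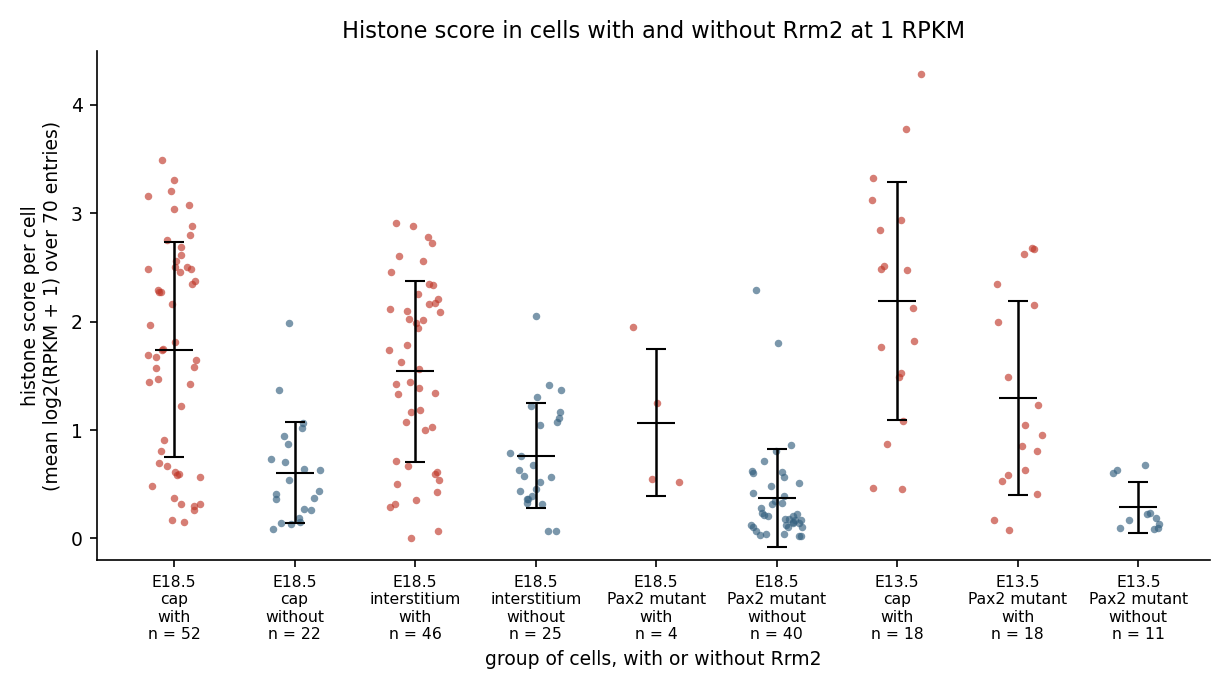
Each point is 1 cell, the y axis is its mean log2(RPKM + 1) over the 70 histone entries, red marks cells with Rrm2 at 1 RPKM or more and blue cells without, and bars give mean ± SD of each side in the 5 groups. The red cells lie higher in the 4 groups that hold both kinds, and the E18.5 mutant cells lie mostly near the floor with a median of 0.232.

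Most members shared their highest and their lowest group. Of the 66 members above 0, 60 had their highest group mean in E13.5 cap, and 55 had their lowest in E18.5 mutant cells. A further 9 were lowest in E13.5 mutant cells. The same order was not counted over all entries, and members that share sequence are not separate in these counts. The median of all entries tested moved the same way. It was -0.20 for E18.5 minus E13.5 cap, and for mutant minus cap -0.44 at E18.5 and -0.53 at E13.5. Of all 70 members, 14 reached 1 RPKM in at least 50% of the 236 cells in groups and 20 in under 20%.

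**Figure D2:**
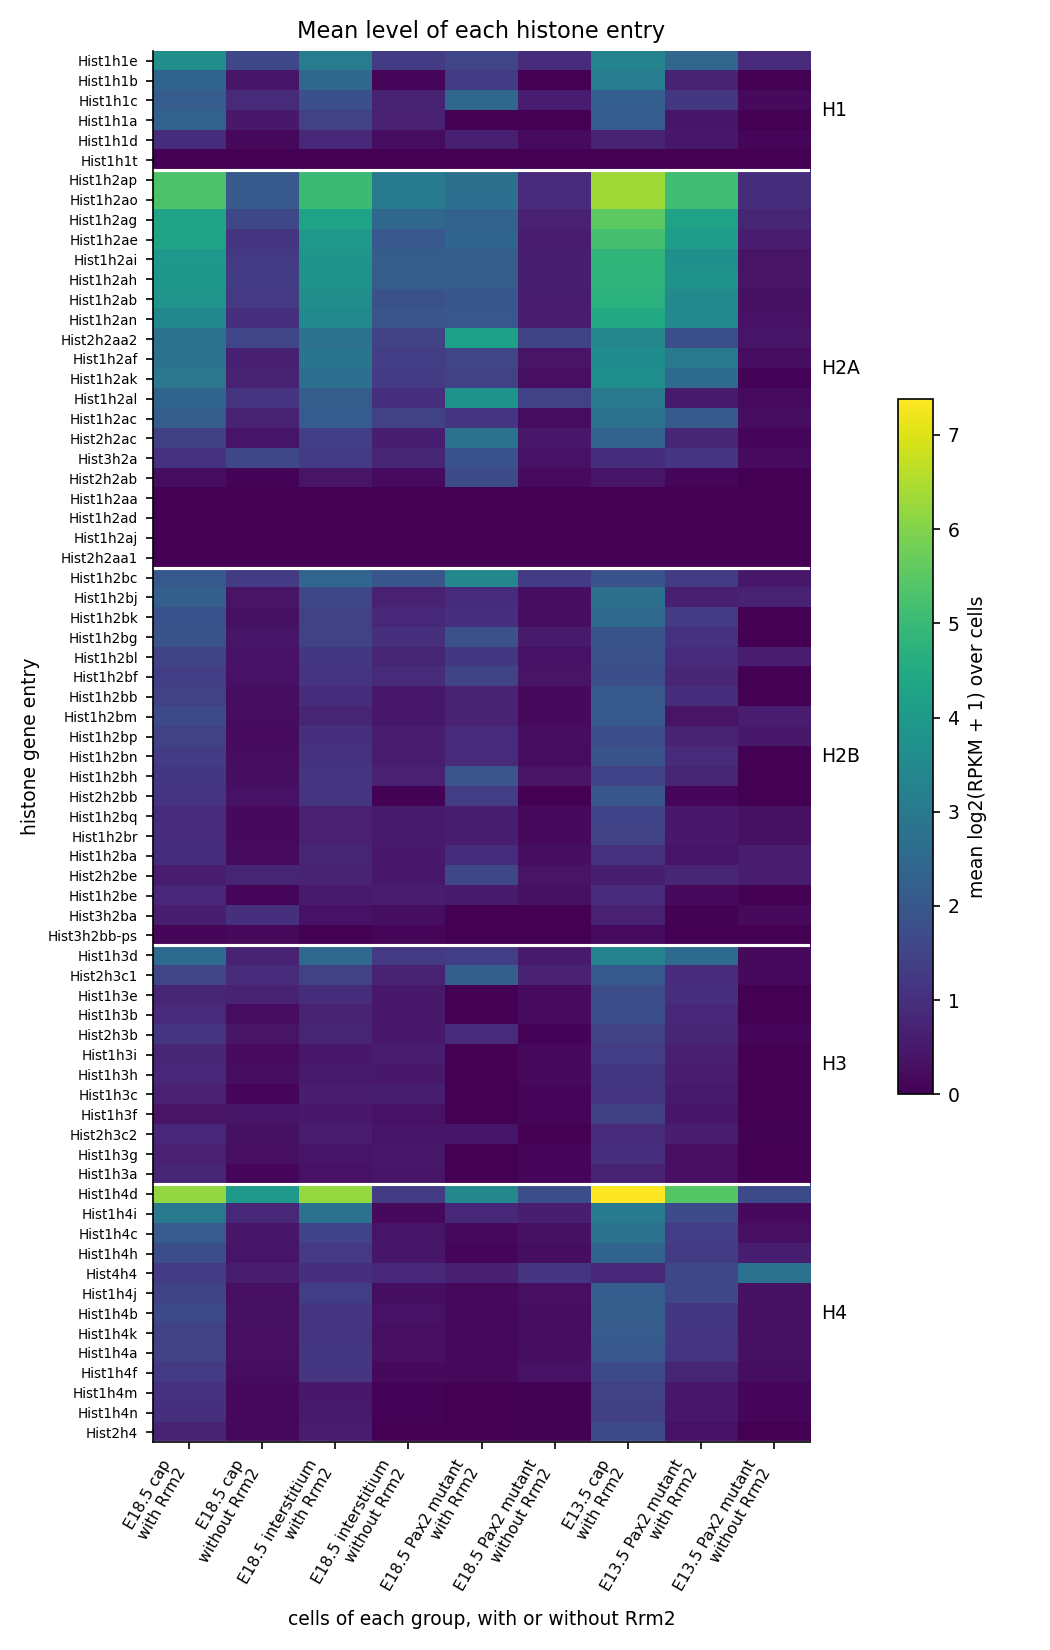
The heat map gives the mean log2(RPKM + 1) of each of the 70 histone entries (rows, by histone type) in the 5 groups and, for 4 of them, in cells with and without Rrm2 (columns). Yellow is high and dark blue low: Hist1h4d and many H2A rows are the brightest, and the columns of E18.5 mutant cells and of cells without Rrm2 are mostly dark.

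Cells with Rrm2 had more histone mRNA. Rrm2 reached 1 RPKM in 52 of 74 E18.5 cap cells (70.3%, exact Clopper-Pearson 95% interval 58.5 to 80.3%), 46 of 71 interstitium cells (64.8%, 52.5 to 75.8%), 4 of 44 E18.5 mutant cells (9.09%, 2.53 to 21.7%), all 18 E13.5 cap cells (81.5 to 100%) and 18 of 29 E13.5 mutant cells (62.1%, 42.3 to 79.3%). The score with and without Rrm2 was 1.74 ± 0.99 and 0.61 ± 0.47 in E18.5 cap, 1.54 ± 0.83 and 0.76 ± 0.48 in interstitium, and 1.29 ± 0.90 and 0.29 ± 0.23 in E13.5 mutant cells. In E18.5 mutant cells it was 1.07 ± 0.68 over 4 cells and 0.38 ± 0.45 over 40. The E18.5 cap difference of 1.14 and the E13.5 mutant difference of 1.01 exceeded the SD of either side. Cells with Rrm2 also had more genes, with medians of 5474.5 against 4653 in E18.5 cap, 5419 against 4398 in interstitium and 4888 against 3603 in E13.5 mutant cells, and the part of this in the difference was tested only by a narrower range of genes. Among cells with 3000 to 5000 genes the E18.5 cap difference was 0.49, with 13 cells on each side.

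The cells with the most members detected had Rrm2. At least 40 members reached 1 RPKM in 25 E18.5 cap, 11 interstitium and 5 E13.5 mutant cells, and each of these cells had Rrm2. The same held for 9 E13.5 cap cells, where every cell had Rrm2. No E18.5 mutant cell reached 40 members, and the highest score of that group, 2.29, came from a cell without Rrm2. Splitting further by Top2a, a topoisomerase that is abundant from S phase to mitosis, the score was 1.64 in 40 interstitium cells with both genes, 0.89 in 6 with Rrm2 alone, 1.02 in 13 with Top2a alone and 0.49 in 12 with neither. In E18.5 cap the 51 cells with both were at 1.77, the 12 with Top2a alone at 0.63 and the 10 with neither at 0.58.

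By members, 35 were higher by 1 log2 unit or more in E18.5 cap cells with Rrm2, where 7.04% of all entries tested passed that mark, and 0 were lower, against 4.34%. Entries tested are those that reached 1 RPKM in 10% of the cells compared, 63 of the 70 members here, and the comparison of counts is a description, since 1 sample a group allows no statistical test. Among cells with 3000 to 5000 genes 16 of 56 members tested were higher, against 8.78% of all entries. The counts were 22 higher and 0 lower in interstitium (11.5% and 0.612% of all entries), but among interstitium cells with 3000 to 5000 genes only 3 of 57 members tested were higher, against 8.12% of all entries. Over the E13.5 mutant cells 22 members were higher and 1 lower (31.6% and 3.42%). The E13.5 mutant count is 38.6% of the 57 members tested and so not far from the background. In E18.5 mutant cells 25 of 70 were higher, 21 of them among entries tested, against 22.4% of all entries, and 0 were lower against 12.2%. The median difference over the 70 members was 1.0 in E18.5 cap, 0.52 in interstitium, 0.69 in E13.5 mutant and 0.58 in E18.5 mutant cells. Over all entries that passed the filter it was 0.09, 0.28, 0.55 and 0.05. Of the 66 members above 0, 37 were higher with Rrm2 in all 4 groups and 21 in 3. The matching count over all entries was not made, and their median was above 0 in all 4 groups. Members that share sequence are not separate in this count.

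**Figure D3:**
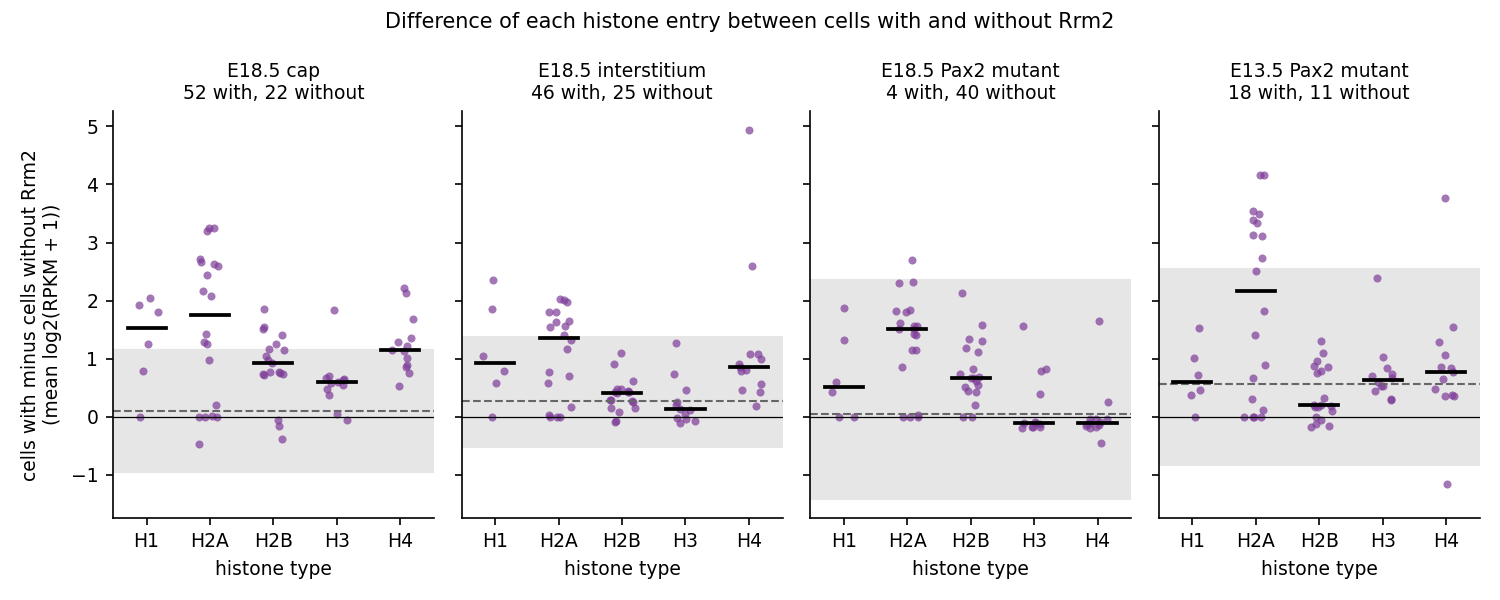
Each of the 4 panels is a group with cells on both sides of the split, the y axis is the mean log2(RPKM + 1) with Rrm2 minus that without, points are histone entries by type, black lines type medians, the grey band the 5th to 95th percentile of all entries tested and the dashed line their median. The H2A median is the highest of the 5 types in each panel, and the H3 median lies closest to that of all entries in E18.5 cap.

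Linker histones H1 bind the DNA between nucleosomes. The mean difference with Rrm2 over the H1 entries was 1.30 in E18.5 cap, 1.11 in interstitium and 0.68 in E13.5 mutant cells, and 4, 3 and 2 of 6 entries were higher by 1 log2 unit or more, against 7.04%, 11.5% and 31.6% of all entries. The E13.5 mutant share is near that background. Hist1h1b showed a sharp split in detection. It reached 1 RPKM in 27 of 52 E18.5 cap cells with Rrm2 (51.9%, 37.6 to 66%) and 2 of 22 without (9.09%, 1.12 to 29.2%), and in 25 of 46 (54.3%, 39 to 69.1%) and 1 of 25 (4%, 0.101 to 20.4%) interstitium cells. In E13.5 mutant cells it was in 3 of 18 with and 0 of 11 without. These intervals do not overlap in the E18.5 cap or interstitium groups, and they do in the E13.5 mutant group.

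Hist1h1e had the highest mean of the H1 entries. Its lowest, median and highest RPKM were 0, 9.77 and 178 in E18.5 cap, 0, 4.64 and 62.2 in interstitium, and 0, 8.90 and 162 in E13.5 cap cells. In mutant cells they were 0, 0.659 and 73.1 at E13.5 and 0, 0 and 165 at E18.5. The ranges overlapped in all groups, and 57, 44, 15, 14 and 11 cells were at 1 RPKM or more. Hist1h1a reached 1 RPKM in 34 of 74 E18.5 cap cells, 25 of 71 interstitium cells, 9 of 18 E13.5 cap cells and 3 of 29 E13.5 mutant cells. It was listed at 0 in all 44 E18.5 mutant cells, which allows a share of up to 8.04% by counting error over cells. The lower bound in interstitium was 24.2%. Median genes per cell also differed, 3643 in E18.5 mutant and 5178 in interstitium, and Rrm2 was in 4 of 44 and 46 of 71 cells. Each group is 1 sample, so the difference was not tested. Hist1h1c was in 34 of 52 E18.5 cap cells with Rrm2 and 4 of 22 without.

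H2A pairs with H2B in the nucleosome core, and its entries had the highest levels of any type. The mean over H2A entries was 2.04 in E18.5 cap, 2.05 in interstitium, 0.64 in E18.5 mutant, 3.12 in E13.5 cap and 1.51 in E13.5 mutant cells. With Rrm2 it was higher by 1.94 in E13.5 mutant cells and, at E18.5, by 1.58 in cap, 1.11 in interstitium and 1.33 in mutant cells. In that order 12, 13, 12 and 15 of 20 entries passed 1 log2 unit, against 31.6%, 7.04%, 11.5% and 22.4% of all entries. The 15 in E18.5 mutant cells were counted without the filter behind the 22.4%, which only 13 of the 20 passed. Only 4 cells of that group had Rrm2. H2A entries share most of their sequence, so the count is not one of separate genes.

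Hist1h2ao, which stands for the family shown above, had a lowest, median and highest RPKM of 0, 25.6 and 613 in E18.5 cap, 0, 17.7 and 721 in interstitium, and 1.67, 89.6 and 663 in E13.5 cap cells. In mutant cells these were 0, 5.81 and 522 at E13.5 and 0, 0.258 and 612 at E18.5. E13.5 cap was the only group with no cell under 1 RPKM, while single mutant cells were as high as the highest cap cells. With and without Rrm2 its mean log2(RPKM + 1) was 5.32 ± 2.56 and 2.07 ± 2.17 in E18.5 cap, 5.03 ± 2.75 and 3.01 ± 2.20 in interstitium, and 5.11 ± 2.81 and 0.96 ± 1.57 in E13.5 mutant cells. The E18.5 cap and E13.5 mutant differences exceeded the SD of either side. In interstitium without Rrm2, 19 of 25 cells still reached 1 RPKM (76%, 54.9 to 90.6%).

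Hist2h2aa2, which shares a family with Hist1h2al and with Hist2h2aa1 (listed at 0), differed less between E18.5 cap and mutant cells than Hist1h2ao. Hist2h2aa2 reached 1 RPKM in 47 of 74 cap, 46 of 71 interstitium and 22 of 44 mutant cells at E18.5, and in 15 of 18 cap and 11 of 29 mutant cells at E13.5. Its mean was 2.41 ± 1.98, 2.29 ± 1.77 and 1.76 ± 1.87 at E18.5 and 3.41 ± 1.79 and 1.28 ± 1.57 at E13.5. The E18.5 cap and mutant means of this member were within 1 SD of each other. Hist2h2aa2 was at the top of the Rrm2 differences in E18.5 mutant cells, at 2.70, where only 4 cells had Rrm2. Hist3h2a had the lowest Rrm2 difference of all members in E18.5 cap cells, -0.47.

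H2B entries stood lower than their H2A partners. The H2B mean was 1.01 in E18.5 cap, 0.87 in interstitium, 0.38 in E18.5 mutant, 1.59 in E13.5 cap and 0.49 in E13.5 mutant cells, and with Rrm2 it was higher by 0.88, 0.37, 0.79 and 0.39 in the 4 groups with both sides. By 1 log2 unit or more, 8 of 19 H2B entries were higher in E18.5 cap (7.04% of all entries) and 1 in interstitium (11.5%). For Hist1h2bc the lowest, median and highest RPKM were 0, 1.37 and 289 in E18.5 cap, 0, 1.04 and 478 in interstitium and 0, 0 and 586 in E18.5 mutant cells, and the means were 1.81 ± 2.08, 2.25 ± 2.68 and 1.48 ± 2.74. These ranges overlapped throughout. Hist1h2bc had the largest positive difference of any member between interstitium and cap, at 0.44.

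The entries of divergent pairs were compared across single cells. Hist1h2ao and Hist1h2bq are unique in 0% of coding windows, so values of such entries are those of families. They cannot show whether the genes of a pair are expressed together. Among the 9 pairs with both members above 0, the correlation of log2(RPKM + 1) over 236 cells had a median of 0.40 (range -0.05 to 0.47), and over the 314 other pairs of an H2A with an H2B entry the median was 0.30. The points share group, library and gene number, and the values are a description. Hist1h2ao was detected in 170 cells and its partner Hist1h2bq in 60, with 55 cells in common and a correlation of 0.35. In 8 of 10 pairs the H2A entry had the higher mean in every group. Over all member pairs the median correlation was 0.79 within a family that shares sequence (179 pairs), 0.37 within a type but across families (282 pairs) and 0.31 across types (1684 pairs).

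**Figure D4:**
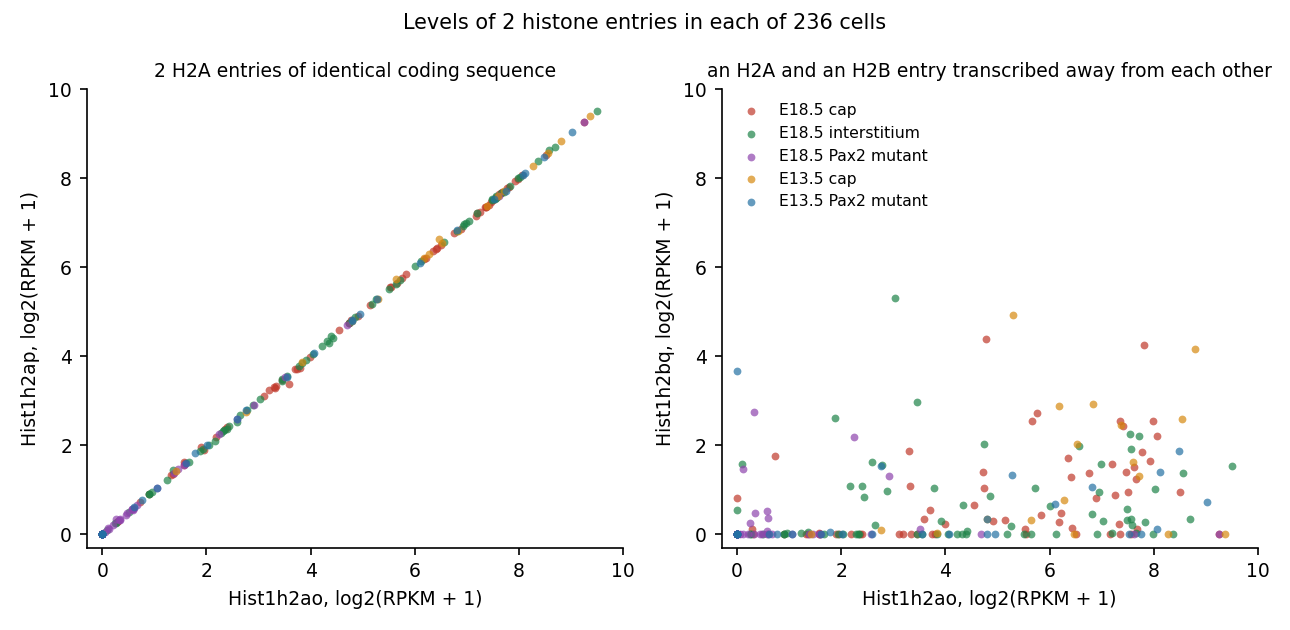
Each point is 1 of the 236 cells in groups, and axes are log2(RPKM + 1). Hist1h2ao and Hist1h2ap, identical in coding sequence, lie on the diagonal, while Hist1h2ao and its divergent neighbour Hist1h2bq scatter, with many cells at 0 for Hist1h2bq.

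H3 and H4 form the tetramer at the centre of the nucleosome. The H3 difference with Rrm2 was the smallest of the 5 types in E18.5 cap (0.59) and interstitium (0.25). It was not the smallest in E13.5 mutant (0.75) or E18.5 mutant cells (0.20). In E18.5 cap and in interstitium 1 of 12 entries passed 1 log2 unit, against 7.04% and 11.5% of all entries. These shares are near that background. The entry past the mark of 1 log2 unit was Hist1h3d in both groups, and Hist1h3d is unique in only 17.5% of coding windows. It reached 1 RPKM in 38 of 52 E18.5 cap cells with Rrm2 and 5 of 22 without, and in 34 of 46 and 13 of 25 interstitium cells. Its entry contains Hist1h2ad, so H2A reads may be counted in it, which was not tested.

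The H4 entries were higher with Rrm2 by 1.25 in E18.5 cap, 1.21 in interstitium and 0.86 in E13.5 mutant cells, with 9, 5 and 4 of 13 past 1 log2 unit, against 7.04%, 11.5% and 31.6% of all entries. The E13.5 mutant share is at that background. In E18.5 mutant cells the H4 difference was 0.02. Hist1h4d had the highest RPKM of the H4 entries, a scale that is per length. Its lowest, median and highest values were 0, 73.9 and 1166 in E18.5 cap, 0, 38.8 and 1139 in interstitium, and 0, 293 and 2901 in E13.5 cap cells. In mutant cells they were 0, 28.8 and 1240 at E13.5 and 0, 0 and 1787 at E18.5. Every group had cells at 0, and the highest cell of each group lay above the E13.5 cap median.

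Hist1h4d detection in cells without Rrm2 differed between the E18.5 wild type groups. Without Rrm2, 17 of 22 E18.5 cap cells had Hist1h4d at 1 RPKM or more (77.3%, 54.6 to 92.2%), and 9 of 25 interstitium cells had it (36%, 18 to 57.5%). The 2 intervals overlap slightly. With Rrm2 the counts were 41 of 52 (78.8%) and 38 of 46 (82.6%), so in E18.5 cap the share was nearly equal on both sides of the split. The mean in E18.5 cap was still higher with Rrm2, 6.18 ± 3.61 against 3.97 ± 2.77, and in interstitium it was 6.23 ± 3.35 against 1.29 ± 2.10. Hist1h4i, a separate H4 family, was in 36 of 52 and 9 of 22 E18.5 cap cells and in 30 of 46 and 3 of 25 interstitium cells.

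Hist4h4, the only member with a Hist4 name, had a higher mean in mutant than in cap cells at E13.5. Its lowest, median and highest RPKM were 0, 0.394 and 99.5 in E18.5 cap, 0, 0.621 and 66.6 in interstitium and 0, 0.521 and 163 in mutant cells at E18.5. At E13.5 they were 0, 0.482 and 6.99 in cap and 0, 2.04 and 605 in mutant cells. The ranges overlapped, and the high values stood in few cells. Its mean was 2.04 ± 2.28 in E13.5 mutant and 0.83 ± 0.92 in E13.5 cap cells. In E13.5 mutant cells it was at 1 RPKM or more in 9 of 11 cells without Rrm2 (81.8%, 48.2 to 97.7%) and 9 of 18 with it (50%, 26 to 74%), with means of 2.76 ± 2.78 and 1.60 ± 1.87. The intervals overlap. Hist4h4 shares no 50-base coding window with another member.

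Pax2 mutant cells at E18.5 were compared with cap cells, the design's contrast of mutant and wild type in this lineage. The histone score was lower by 0.97 in mutant cells, within 1 SD of the cap cells (1.01). None of the members was higher by 1 log2 unit and 22 were lower, against 4.71% and 24.7% of all entries tested. These are 35.5% of the 62 members tested, above the background. However, 11 of the 22 are H2A entries, which share most of their sequence, so the count is not one of separate genes. The shares of H2B and H3 entries lay below the background. The member median was -0.73 and that of all entries -0.44. By type the lower entries were 3 of 6 for H1, 11 of 20 for H2A, 3 of 19 for H2B, 1 of 12 for H3 and 4 of 13 for H4. The largest differences were -3.60 for Hist1h4d, -3.30 for Hist1h2ao and -3.30 for Hist1h2ap. By cluster the mean difference was -1.10 for Hist1, -0.42 for Hist2, -0.53 for Hist3 and -0.02 for Hist4h4. Against interstitium, 17 members were lower and 0 higher (24.8% and 2.16% of all entries), which are 28.3% of the 60 members tested, and Hist1h4d and Hist1h2ap differed by -2.56 and -3.27. Of these 17 members, 11 were H2A entries.

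Rrm2 moves with this comparison, as it was in 9.09% of mutant and 70.3% of cap cells. Among cells with Rrm2 the score difference was -0.67, over 4 mutant cells, and among cells without it -0.23, over 40 mutant and 22 cap cells. The mutant cells also had fewer genes, and among cells with 3000 to 5000 genes 12 of 45 members tested were lower, against 11.4% of all entries. The 4 highest mutant scores were 2.29, 1.95, 1.8 and 1.25, from cells with 28, 26, 29 and 28 members at 1 RPKM or more. Of these, the cells at 1.95 and 1.25 had Rrm2, and those at 2.29 and 1.8 did not.

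At E13.5 the mutant score was lower by 1.28, which exceeded the SD in both groups. Here 48 members were lower and 1 was higher, against 30.9% and 1.59% of all entries tested. The member median was -1.24 and that of all entries -0.53. The lower entries were 4 of 6 for H1, 14 of 20 for H2A, 13 of 19 for H2B, 5 of 12 for H3 and 12 of 13 for H4, and the higher entry was Hist4h4, by 1.21. The largest differences were -3.38 for Hist1h4d and -2.80 for Hist1h2ap. Among cells with Rrm2 the score difference was -0.89. Among cells with 3000 to 5000 genes it was 0.09, but only 2 E13.5 cap cells lie in that range, against 17 mutant cells. 1 E13.5 cap cell had 5 endothelial markers and no cap marker and a score of 0.47, and without the cells of other markers the difference was -1.44.

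Interstitium and cap cells at E18.5 differed little in histone mRNA. The score difference was -0.14, far inside the SD. No member was higher in interstitium by 1 log2 unit (6.23% of all entries were) and 1 was lower, Hist1h4d at -1.04 (2.84% of all entries were). The difference reversed to 0.16 among cells without Rrm2 and to 0.05 among cells with 3000 to 5000 genes, so its direction is not settled. Hist1h1a was lower by 0.59.

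Between E13.5 and E18.5, cap cells had lower histone mRNA at the later age. The score was lower by 0.78, within 1 SD of either group. Rrm2 moves with this comparison too, as it was in all 18 E13.5 and in 52 of 74 E18.5 cap cells. Among cells with Rrm2 the mean score was 2.19 at E13.5 and 1.74 at E18.5. At E18.5 0 members were higher and 25 lower, against 2.77% and 15.7% of all entries tested. The member median was -0.74 and that of all entries -0.20. Of the lower entries 12 were H2A, led by Hist1h2ag at -2.01, with a lowest, median and highest RPKM of 1.26, 39.1 and 363 at E13.5 and 0, 9.63 and 275 at E18.5. Among cells with 3000 to 5000 genes the score was 0.20 higher at E18.5, again with 2 E13.5 cap cells.

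Genes around the histones were read from 5 lists. In E18.5 cap the mark of 1 log2 unit with Rrm2 was passed by 10 of 13 genes of S phase other than Rrm2, which makes the split (median 1.64), and by all 12 of G2 and M phase (median 2.95), against 7.04% of all entries. Of 12 histone chaperones and assembly factors, 5 were higher. They were Asf1b (2.67), Nasp (2.49), Hirip3 (1.85), and Chaf1b (1.55) and Chaf1a (1.48), subunits of the chromatin assembly factor that places H3 and H4 on new DNA.

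The genes listed as replication-independent histone variants divided. Of 12, 11 were tested. Cenpa (2.85), the centromeric H3, H2afx (2.58), the H2A of DNA damage signalling, and H2afz (1.07) were higher with Rrm2, against 7.04% of all entries. H3f3b and H3f3a, which encode H3.3, differed by -0.88 and -0.49. Of 14 genes for histone transcription and mRNA processing, 12 were tested. Cpsf2 (1.67), a subunit of the cleavage complex, and Casp8ap2 (1.60) were higher, against the same 7.04% of all entries. Slbp, which binds the stem-loop printed above, differed by 0.62, and Npat, the histone gene coactivator, by -0.23.

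In interstitium the counts higher with Rrm2 were 2 variants, 2 processing genes, 6 chaperones, 12 of 13 genes of S phase other than Rrm2 and 10 of G2 and M, against 11.5% of all entries. In mutant cells against cap cells, 4 variants, 6 processing genes, 9 chaperones, 13 S phase and 12 G2 and M genes were lower at E18.5, where 24.7% of all entries were lower. At E13.5 the counts were 9, 4, 6, 10 and 12, where 30.9% of all entries were lower. The 4 variants of 11 tested at E18.5 and the 4 processing genes of 12 tested at E13.5 lie near those shares. Slbp differed by -2.07 at E18.5 and -0.13 at E13.5.

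**Figure D5:**
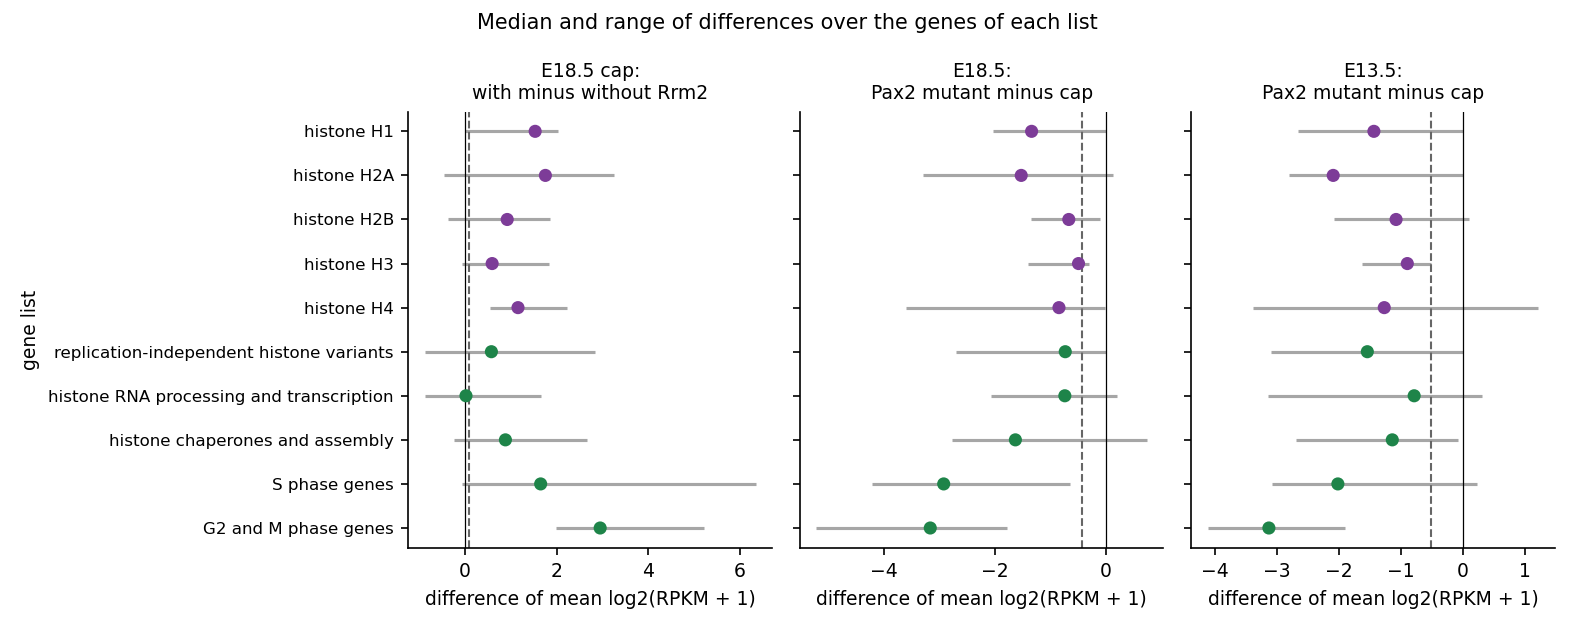
Dots give the median and lines the lowest to highest difference in mean log2(RPKM + 1) within each histone type (purple) and each other list (green), in 3 panels for E18.5 cap with minus without Rrm2, and for mutant minus cap at E18.5 and at E13.5; dashed lines mark the median of all entries tested. G2 and M phase genes lie farthest from the dashed line in each panel, and the processing genes lie near it with Rrm2. The S phase line of the Rrm2 panel includes Rrm2 itself.

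The histone score was set beside the cell cycle lists across cells of each group. Its Pearson correlation with the mean of the G2 and M phase genes was 0.752 over 74 E18.5 cap cells, 0.604 over 71 interstitium cells, 0.790 over 29 E13.5 mutant cells and 0.370 over 18 E13.5 cap cells. With the S phase genes it was 0.593, 0.450, 0.521 and 0.387. The rank correlation (Spearman) with the G2 and M phase genes was 0.712, 0.639, 0.683 and only 0.187. Over the 44 E18.5 mutant cells the Pearson correlation with these genes was 0.626 but the rank correlation 0.061, and with the S phase genes they were 0.333 and 0.218. Gene number per cell, which both sides share, correlated with the histone score at 0.492, 0.448, 0.507 and 0.158. Slbp correlated with it at 0.283 in E18.5 cap and 0.155 in interstitium.

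Stem-loop class was a property that the choice of members did not use. The median difference with Rrm2 in E18.5 cap cells was 1.01 over the 21 members whose transcript model ends within 100 bases of the stem-loop, 0.85 over the 22 whose model goes on, 0.77 over the 7 with no stem-loop in a model long enough to hold it, and 1.10 over the 20 others. The classes differed by less than the spread between histone types.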

How the data were processed

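The authors deposited 1 table of RPKM for 36186 entries and 237 cells, aligned to mm10 with TopHat per the submitters' processing notes. The version, gene models, counting rule and priming are not given in the sources used here. The labels list genomic DNA as the molecule, although their protocol describes reverse transcription of RNA. Members and lists were chosen with earlier results of these data known.

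RPKM were used as log2(RPKM + 1) and averaged over cells. An entry was tested where 10% of the cells of both sides together reached 1 RPKM, and called at a difference of 1 log2 unit. Each group is 1 sample, so differences have no test, and shares have exact Clopper-Pearson 95% intervals. The depth is unknown, and genes at 1 RPKM or more stand in for it. Named are Rrm2, the 10 members with the highest means, the 3 largest positive and negative differences per comparison, members at 0 throughout and the list genes; Hist1h1b, Hist1h1c, Hist1h3d, Hist1h4i, Hist1h2bq and cells picked out were described after their values were seen. Coding sequences and transcript ends came from GENCODE M21, and promoters from RefSeq (GRCm38.p6). Protein sequences were not used here. Python 3.11, numpy 2.4.6, pandas 2.3.3, scipy 1.17.1 and matplotlib 3.10.9 were used. Alternatives covered the pseudocount, the call size, scaling, cell filters and the gene of the split. 1 cell whose tissue source the labels do not give was left out of all comparisons.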

Additional observations from a re-analysis of the deposited data

How the results depend on the processing

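Without replicates the SD between cells is the only error, and cells of a group share their source. Depth is unknown, and short entries with shared sequence cannot be resolved. Alternatives on families counted once, members above 0, marker filters, cells with or without Rrm2 only and further scalings were chosen after seeing the data. No paired analysis was possible because cells carry no number that ties them across groups. The Rrm2 split of E13.5 cap could not be computed, since every cell had Rrm2, and its alternatives and the E13.5 comparisons over cells without Rrm2 were not run.

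Of 119 alternative score values 94 moved by less than the SD, 20 moved more and 5 reversed. Of 144 alternative counts 104 stayed within 1.5 times and 40 did not. For the score of interstitium minus cap (-0.14), cells with 3000 to 5000 genes gave 0.048 and cells without Rrm2 0.16, and its lower count of 1 became 5 at 0.5 log2 units and 0 with a pseudocount of 10, rescaled sums or size factors. For E18.5 mutant minus cap (-0.97), pseudocounts of 0.1 and 10 gave -1.83 and -0.35 and cells without Rrm2 -0.23, and the lower count of 22 became 47 at 0.5 units, 55 and 6 with the pseudocounts and 12 at 3000 to 5000 genes. For mutant minus interstitium (-0.83) the pseudocounts gave -1.62 and -0.29, and the count of 17 became 38 at 0.5 units and 49 and 7. For E13.5 mutant minus cap (-1.28), a pseudocount of 0.1 gave -2.30 and 3000 to 5000 genes 0.094, where 8 were lower and 4 higher. A pseudocount of 10 gave 9 lower and 0 higher, and without the cells of other markers 0 were higher. For cap at E18.5 minus E13.5 (-0.78), 3000 to 5000 genes gave 0.20 with 5 lower and 5 higher, and the lower count of 25 became 48 at 0.5 units, 47 and 4 with the pseudocounts and 13 with size factors.

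For the Rrm2 split in E18.5 cap (1.14), pseudocounts gave 2.0 and 0.44 and 3000 to 5000 genes 0.49, and the higher count of 35 became 56 at 0.5 units, 57 and 10 with the pseudocounts and 16 at 3000 to 5000 genes, where 1 was lower. In interstitium (0.78) a pseudocount of 0.1 gave 1.43, and the count of 22 became 35, 40, 7 and 3 in that order. In E18.5 mutant cells (0.69) a pseudocount of 0.1 gave 1.31 with 1 lower, Top2a in place of Rrm2 1.76, Pcna -0.14 and any Rrm2 above 0 0.10, and the count of 21 became 4 with a pseudocount of 10. In E13.5 mutant cells (1.01) the pseudocounts gave 2.07 and 0.37, ratios of mean RPKM 1.31, Top2a 0.77, Mki67 1.30, Pcna 0.59 and families counted once 0.74. Its higher count of 22 became 41 at 0.5 units and 50 and 10 with the pseudocounts, and its lower count of 1 became 0 with a pseudocount of 10, rescaled sums, 3000 to 5000 genes or without the cells of other markers. Median members detected became 7 in interstitium at 10 RPKM, 18 in E18.5 mutant above 0, and 58 above 0 and 20.5 at 10 RPKM in E13.5 cap. Size factors moved the median of all entries from -0.44 to -0.32 and -0.34 in E18.5 mutant minus cap and minus interstitium, from -0.53 to -0.33 at E13.5, from -0.20 to -0.07 between ages and from 0.28 to 0.14 in the interstitium split. The causes were not tested, beyond the fewer cells and the construction of each alternative.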

Other observations

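1 cell has labels that give no tissue source, so it was placed in no group and stands in no comparison. Its title names E13.5, wild type and the date of the E13.5 cap cells, with another pool number. Its histone score was 1.26, with 27 of the 70 members at 1 RPKM or more among 6570 genes. Rrm2 was at 7.64 RPKM, Six2, a cap mesenchyme transcription factor, at 143 RPKM, and Pdgfra, an interstitium marker, was listed at 0. Hist1h2bh was at 103 RPKM, Hist1h4d at 30.4 and Hist1h2ao at 19.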
